A study of Mus musculus with 2 samples.

Results

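The genes described here are 7 members of the BCL2 family that set the survival threshold of a cell: Bcl2, Bcl2l1, Mcl1, Bcl2a1a, Bcl2a1b, Bcl2a1d and Bcl2l11. They were taken by symbol from the 55450 gene rows of the deposited count tables, and each symbol matched 1 row. The tables hold single-cell 3' RNA counts of cells from the brains of C57BL/6 mice, taken by flow sorting in the CD11b high, CD45 low gate used for microglia on day 3 of microglial repopulation. There was 1 library per genotype. The Hk2 fl/fl mice carry a floxed Hk2 gene, which encodes the glycolytic enzyme hexokinase 2. The Hk2 cKO mice carry the same floxed alleles and, in addition, Cx3cr1CreER, a tamoxifen-inducible Cre recombinase expressed from the locus of the fractalkine receptor gene Cx3cr1. The labels describe intraperitoneal tamoxifen shortly after birth or at another time that they do not give. They do not give the age of the animals, the number of animals pooled in a library, the floxed exons, how microglia were depleted, or whether fl/fl mice also received tamoxifen. No test was possible with 1 library per genotype, so no p-value is given. Ranges in parentheses are 95% intervals, by the exact Poisson method for a count and the Clopper-Pearson method for a share, and cover counting error only; UMIs are molecules counted once by their tag.

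BCL2 family proteins decide whether mitochondria release cytochrome c and start apoptosis. The anti-apoptotic members BCL2, BCL-XL (Bcl2l1), MCL1 and A1 (the Bcl2a1 copies) hold the effectors BAX and BAK in check, and BH3-only proteins such as BIM (Bcl2l11) bind the anti-apoptotic members and free the effectors. MCL1 protein is short-lived, BCL2 and BCL-XL are more stable, and A1 is known as an NF-kappaB target of blood cells and macrophages, present in the mouse as several near-identical gene copies. Microglia depend on signalling through the CSF1 receptor to survive.

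After filtering, 2824 fl/fl and 2300 cKO cells remained, of which 2495 (88.3%) and 2021 (87.9%) were microglia-like, with 32960104 and 28593896 UMIs and median depths of 10177 and 12010 UMIs per cell. All 16 microglial markers were at 10 CPM (UMIs per 1000000 UMIs) or more in both sums. The 9 neutrophil markers summed to 167 and 180 CPM and the 8 monocyte markers to 34.8 and 74.8 CPM there. Hk2 measured 167 CPM in the fl/fl and 43.4 CPM in the cKO library, in the direction of the labels. Cx3cr1, whose locus carries the driver, measured 1302 and 676 CPM. The libraries shared 2 barcodes.

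All 7 genes were measured in microglia-like cells, at a mean of 10 CPM or more. Of these, 5 were higher in the cKO library and 2, Bcl2l1 and Bcl2l11, were lower by a step within counting error whose sign turned under some settings. Only Bcl2a1d was at least 25% apart, on the higher side, where 3.28% of all 7815 measured genes lay; no member was 25% lower, against 2.48% of all measured genes. Poisson intervals did not overlap for 4 members, Mcl1 and the Bcl2a1 copies, all higher in cKO, against 10.8% of measured genes in that direction and 16.3% in the other. The median log2 ratio of the 7 genes was 0.11 and that of all measured genes was -0.04. Ratios throughout are log2 of cKO over fl/fl after 1 CPM was added to each.

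**Figure D1:**
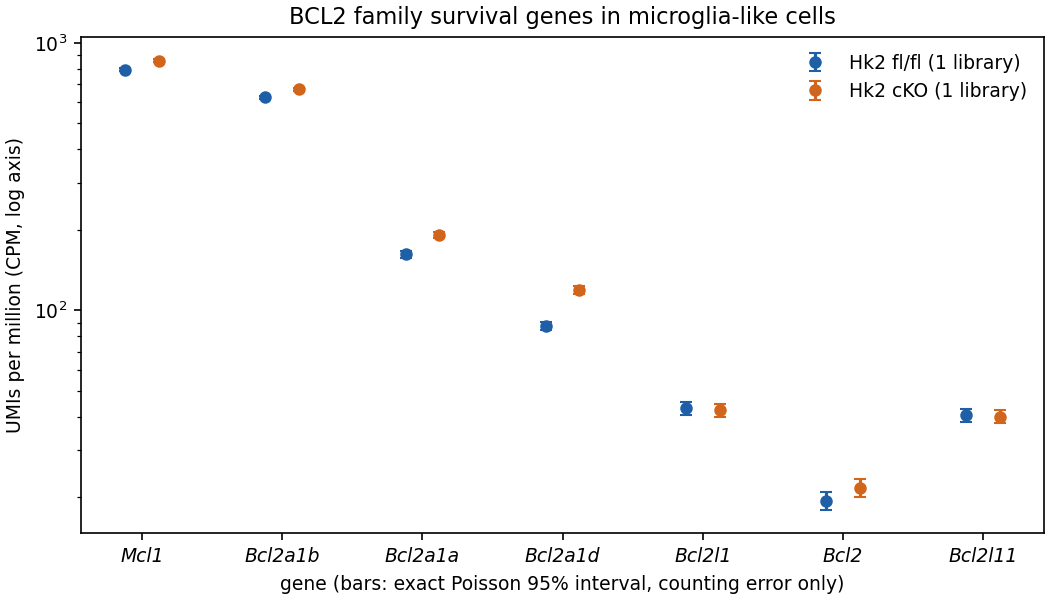
Level of each of the 7 genes in microglia-like cells (vertical axis: CPM, log scale) in the fl/fl library (blue) and the cKO library (orange), 1 library each, with exact Poisson 95% intervals. The points of Mcl1 (794 and 857 CPM) and of the Bcl2a1 copies stand apart, while those of Bcl2l1 (43.0 and 42.3 CPM) and Bcl2l11 (40.5 and 40.0 CPM) lie at the same height.

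A1 is encoded by 3 expressed gene copies on chromosome 9 (GRCm38, GENCODE M21 gene models): Bcl2a1d (ENSMUSG00000099974, 88723285 to 88731914, minus strand), Bcl2a1a (ENSMUSG00000102037, 88956900 to 88962419, plus strand) and Bcl2a1b (ENSMUSG00000089929, 89199209 to 89207827, plus strand). Cx3cr1 lies on the same chromosome at 119901616 to 120069879. The copies share a stretch upstream of their starts, which is printed here because their levels moved together across cell groups. The stretches below come from the RefSeq promoter windows of build GRCm38.p6, each 5' to 3' on the strand of its gene and upstream of both the RefSeq and the GENCODE start. They are chr9:88956714-88956855 (plus strand) for Bcl2a1a, chr9:89199023-89199164 (plus strand) for Bcl2a1b and chr9:88731915-88732050 (minus strand) for Bcl2a1d. Capitals mark a match to a loose AP-1 pattern (TGANTCA, with N any base, here A) and an ETS motif (GAGGAAGT).
Bcl2a1a: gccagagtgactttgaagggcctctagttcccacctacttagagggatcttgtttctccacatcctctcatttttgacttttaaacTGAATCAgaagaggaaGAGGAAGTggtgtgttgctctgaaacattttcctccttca
Bcl2a1b: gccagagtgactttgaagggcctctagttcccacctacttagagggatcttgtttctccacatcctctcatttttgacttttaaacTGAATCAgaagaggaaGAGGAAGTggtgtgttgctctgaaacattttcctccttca
Bcl2a1d: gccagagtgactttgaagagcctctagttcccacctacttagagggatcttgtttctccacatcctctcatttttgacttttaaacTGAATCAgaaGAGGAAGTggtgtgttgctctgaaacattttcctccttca
Outside the spacer between the motifs, the Bcl2a1a and Bcl2a1b stretches were identical over 133 bases. Bcl2a1d differed from both by the substitution G19A, counted from 1 at the 5' end of the stretch, with the Bcl2a1a base first. Its spacer was 3 bases long instead of 9.

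Motifs were searched on both strands in all 32851 RefSeq windows from 250 bases before to 50 after a start, and these motifs were chosen with the values known. TGANTCA was in 7.81% and GAGGAAGT in 3.20% of windows; both were in the window of each of the 3 Bcl2a1 copies and in none of Bcl2, Bcl2l1, Mcl1 or Bcl2l11. The FOXO motif GTAAACA, in 3.65% of windows, was in 1 of 2 Bcl2l11 windows. An NF-kappaB motif, in 4.51%, was in 1 of 3 Bcl2l1 windows. The searched motifs do not overlap each other in the printed stretches, and a match is a description of letters, not of binding.

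Of the 7 genes, Bcl2a1d and Bcl2a1a gave the widest log2 ratios between the libraries. Bcl2a1d measured 87.3 CPM (84.1 to 90.5) in the fl/fl library and 119 CPM (115 to 123) in the cKO library, 36.0% higher in cKO (log2 ratio 0.44). Bcl2a1a measured 162 CPM (157 to 166) and 192 CPM (187 to 197), a log2 ratio of 0.24. Bcl2a1b, the most counted copy, measured 627 CPM (619 to 636) and 671 CPM (661 to 680), a log2 ratio of 0.10. All 3 copies were thus higher in the cKO library, the least counted copy by the widest margin. The ratio of Bcl2a1b was 0.02 with cells thinned to 5000 UMIs and 0.15 without clusters 0 and 11, which are described below, and that of Bcl2a1a was 0.15 after thinning. Summed over copies, A1 stood at 876 and 982 CPM, a log2 ratio of 0.16. Bcl2a1b made up 71.6% of these UMIs in fl/fl and 68.3% in cKO, Bcl2a1a 18.5% and 19.5%, and Bcl2a1d 9.96% and 12.1%. The fourth copy in the annotation, Bcl2a1c, gave 26 UMIs in each library.

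The split between copies is uncertain, since reads from identical stretches cannot be assigned to one copy. The sources used here do not give the read length. In the last 500 bases of the annotated coding transcripts, 39.7% of 90-base windows of Bcl2a1a, 39.4% of those of Bcl2a1b and 65.2% of those of Bcl2a1d were identical in another Bcl2a1 gene. Bcl2a1d thus has the fewest windows of its own, 143 of 411, against 248 for Bcl2a1a and 249 for Bcl2a1b. The part of this in the ratios was not tested. Annotated genes overlapping a copy, Gm29094 on the strand of Bcl2a1b and Gm10634 opposite Bcl2a1d, gave 2 and 2 UMIs and 3 and 7 UMIs.

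Mcl1 (ENSMUSG00000038612, chromosome 3, 95658788 to 95663176, plus strand), the short-lived anti-apoptotic member, measured 794 CPM (784 to 804) in fl/fl and 857 CPM (847 to 868) in cKO microglia-like cells. The cKO value was 7.97% higher (log2 ratio 0.11). Its size depended on how cells were weighted: it was 0.04 as a mean over cells, 0.07 after thinning and 0.19 without clusters 0 and 11.

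Bcl2 and Bcl2l1, the stable anti-apoptotic members, had few UMIs, and their levels had overlapping intervals. Bcl2 (ENSMUSG00000057329, chromosome 1, 106538178 to 106714274, minus strand) measured 19.4 CPM (17.9 to 20.9) and 21.7 CPM (20.04 to 23.5), a log2 ratio of 0.16 whose own interval ran from 0.0043 to 0.33, just above 0. Bcl2l1 (ENSMUSG00000007659, chromosome 2, 152780668 to 152831728, minus strand) measured 43.0 CPM (40.8 to 45.3) and 42.3 CPM (39.9 to 44.7), a log2 ratio of -0.02. The pro-apoptotic BH3-only gene Bcl2l11 (ENSMUSG00000027381, chromosome 2, 128126038 to 128162547, plus strand) likewise measured 40.5 CPM (38.4 to 42.8) and 40.0 CPM (37.8 to 42.4), a log2 ratio of -0.02. For Bcl2l1 the interval of the ratio ran from -0.13 to 0.09 and for Bcl2l11 from -0.13 to 0.10, so gaps of 25% either way lie outside the counting error of these 2 libraries.

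Levels also differed between the states of microglia-like cells, most widely for Mcl1 and Bcl2l11. Microglia-like cells formed 10 clusters, made without BCL2 family genes among the variable genes; since the clusters come from the same cells, their levels are a description. Clusters 0 (led by Pbk, Cdk1, Cdc20 and Ube2c), 1 (Cenpa, Ccnb2, Cdkn3 and Cdc20) and 8 (Top2a, Hist1h1b, Prc1 and Hist1h2ap) carried cell division genes. Cluster 2 was led by Cxcl2, Ccl7, Ch25h and Rcan1, and cluster 7 by the interferon-induced genes Ifit3, Rsad2, Ifit2 and Ifit1. Cluster 4 was led by Rrad, Id2, Abca1 and Neurl3, cluster 5 by Klf2, Adamts1, Gm44164 and Otud1, and cluster 6 by AC122252.2, Dlg4, mt-Nd3 and Fbxl18. Clusters 3 and 11 had Apoe among their leading genes, with Ccr1, Tmem176a and mt-Nd3 in cluster 3 and mt-Rnr1, mt-Atp8 and mt-Rnr2 in cluster 11. Of cluster 3 only 42 cells came from cKO, so ratios and folds below use the other 9 clusters, each with at least 50 cells per library.

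Mcl1 was lowest in clusters 0 and 11 and highest in clusters 4 and 5 in both libraries. In fl/fl it measured 175 CPM in cluster 0, 250.1 CPM in cluster 11, 1123 CPM in cluster 5 and 1160.2 CPM in cluster 4. In cKO the same clusters stood at 166, 185, 1229 and 1445 CPM. The other 6 clusters lay between 679.6 and 845.5 CPM in fl/fl and between 683 and 977 CPM in cKO. The highest cluster was thus 6.61-fold above the lowest in fl/fl and 8.68-fold in cKO, where 19.4% and 20.6% of measured genes differed at least 4-fold. With finer clusters (resolution 1.5) these folds were 10.9 and 14.1. In fl/fl the intervals of clusters 4 and 5 overlapped, and in cKO those of clusters 0 and 11 did.

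Bcl2l11 was likewise lowest in clusters 0 and 11 and highest in cluster 4 in both libraries, but its neighbouring intervals above cluster 11 all overlapped. It measured 4.56 CPM (4 UMIs) in cluster 0, 18.8 CPM in cluster 11 and 63.4 CPM (56.0 to 71.5) in cluster 4 of fl/fl. In cKO these were 5.02 CPM (6 UMIs), 10.7 CPM and 74.8 CPM (66.7 to 83.6). The highest was 13.9-fold and 14.9-fold above the lowest, folds that rest on the few UMIs of cluster 0. A gene that antagonises MCL1 thus stood highest and lowest in the clusters where Mcl1 itself did.

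**Figure D2:**
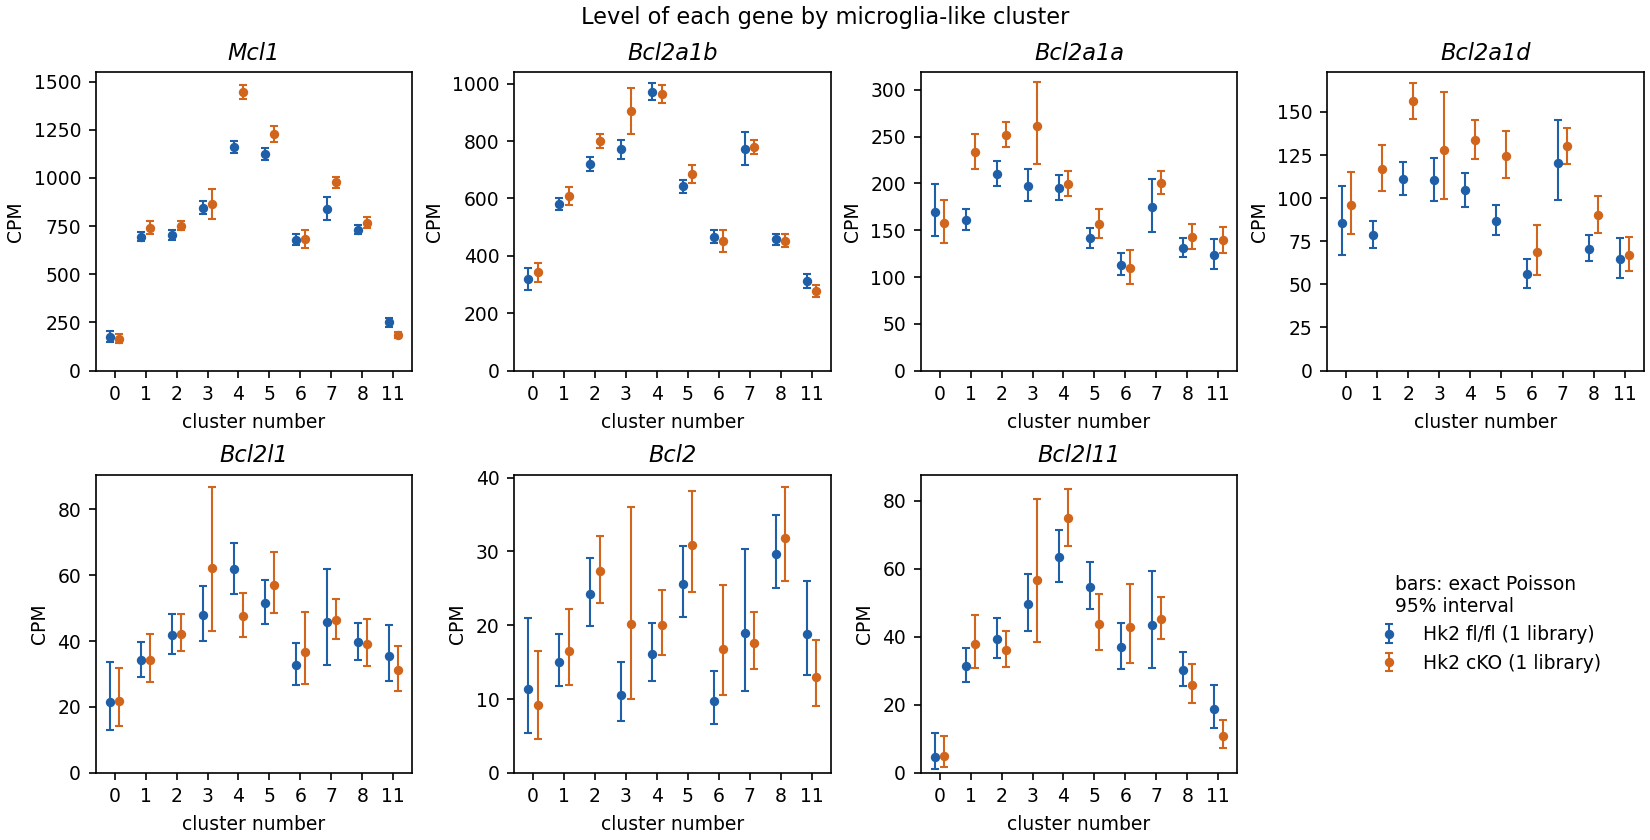
Level of each gene (vertical axes: CPM, each from 0) in the 10 microglia-like clusters of the fl/fl (blue) and cKO (orange) library, with exact Poisson 95% intervals. Mcl1 and Bcl2l11 are lowest in clusters 0 and 11 and highest in cluster 4, while Bcl2 is highest in cluster 8.

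The remaining genes varied less between clusters. Bcl2a1b ran from 311 CPM in cluster 11 to 972 CPM in cluster 4 in fl/fl and from 277 to 964 CPM in the same clusters in cKO (3.13-fold and 3.48-fold). Bcl2a1a was lowest in cluster 6 (113 and 109 CPM) and, among the 9 clusters, highest in the chemokine cluster 2 (209.8 and 252 CPM). Bcl2a1d ranged from 55.8 CPM in cluster 6 to 120 CPM in cluster 7 in fl/fl, and from 67.0 CPM in cluster 11 to 156 CPM in cluster 2 in cKO. Bcl2l1 was lowest in cluster 0 in both libraries (21.6 and 21.7 CPM). Bcl2 had its highest value in cluster 8, one of the clusters with cell division genes, at 29.6 CPM (24.98 to 34.9) and 31.9 CPM (25.9 to 38.7), although neighbouring values of Bcl2 overlapped all along the order.

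Clusters 0 and 11 also stood apart in other measures. The sum of 12 immediate early genes, such as Fos, Jun and Egr1, was 564 and 1605 CPM there in fl/fl and 750.0 and 979 CPM in cKO, against at least 5683 CPM in every other cluster. The nuclear RNA Malat1 stood at 1137 and 3798 CPM in fl/fl and 781 and 3019 CPM in cKO, against 7005 and 7568 CPM over all microglia-like cells. Ribosomal protein genes took 18.0% and 17.5% of UMIs there in fl/fl, against 14.3% over all microglia-like cells. The sum of 12 NF-kappaB and chemokine genes, such as Nfkbia, Tnf and Ccl2, was also lowest there. It stood at 1113 and 1953 CPM in fl/fl and 3112 and 2483 CPM in cKO, against at least 4938 CPM in every other cluster. Low immediate early genes and low chemokine genes thus both went with low Mcl1 and Bcl2l11, and low Malat1 did so less closely. The part of RNA quality or of tissue dissociation in this was not tested. Over the 20 points of 10 clusters in 2 libraries, Pearson's r with the immediate early sum was 0.97 for Mcl1 and 0.94 for Bcl2l11. With the NF-kappaB and chemokine sum r was 0.87 for Mcl1 and 0.80 for Bcl2l11. The points share libraries and cells, and these measures were singled out after the values were seen.

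**Figure D3:**
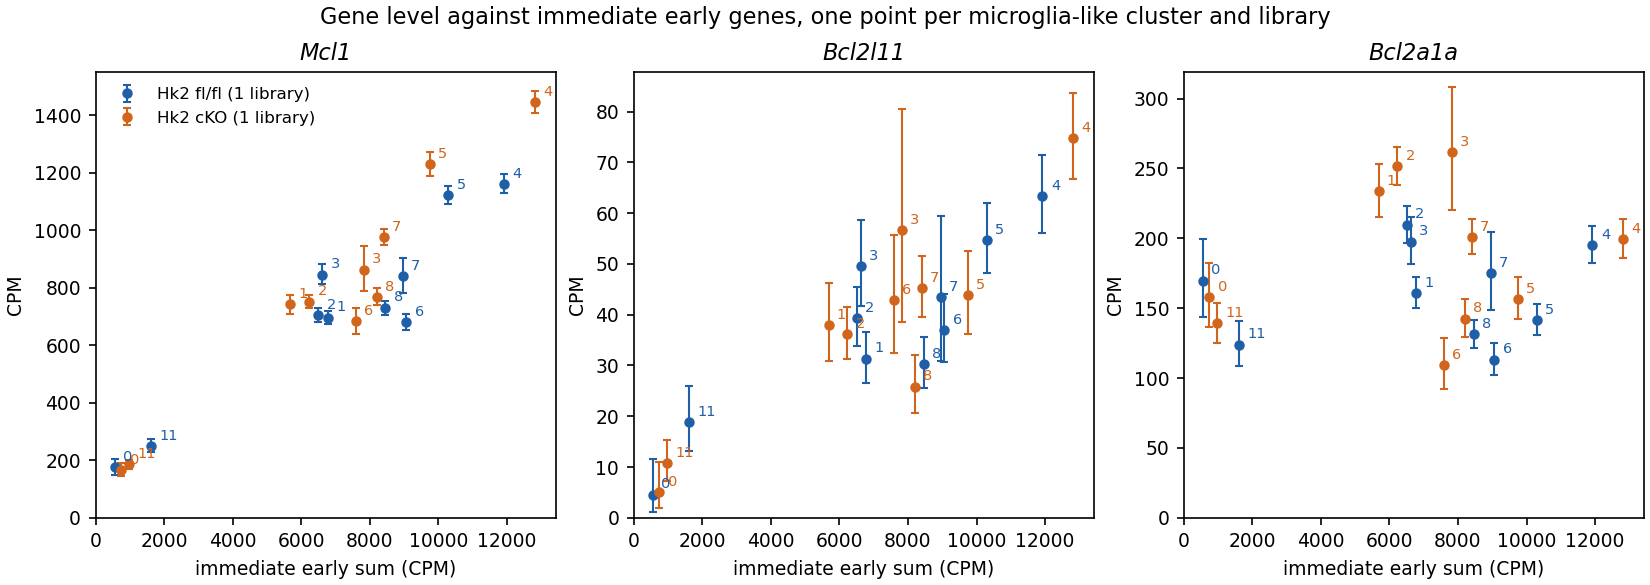
Level of Mcl1, Bcl2l11 and Bcl2a1a (vertical axes, CPM) against the summed level of 12 immediate early genes (horizontal axes, CPM), 1 point per microglia-like cluster (numbered) and library, with exact Poisson 95% intervals. Clusters 0 and 11 sit at the lower left for Mcl1 and Bcl2l11, while Bcl2a1a in cluster 0 (170 and 158 CPM) lies among the other clusters.

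Of the fl/fl microglia-like cells, 12.4% (11.1 to 13.7) lay in these low clusters, and of the cKO ones, 20.98% (19.2 to 22.8). Taken as one group, they had Mcl1 at 227 CPM against 848 CPM in the other microglia-like cells of fl/fl, 3.73-fold lower. In cKO the values were 180 and 964 CPM, 5.37-fold lower. Bcl2l11 was 2.98-fold and 5.01-fold lower there, Bcl2a1b 2.10-fold and 2.46-fold, Bcl2a1d 1.251-fold and 1.66-fold, and Bcl2a1a 1.19-fold and 1.38-fold. The cKO library thus held relatively more cells with little Mcl1, and its sum was still the higher one.

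Within clusters, Bcl2a1d was the one member higher in cKO in all 9, as were 2.15% of measured genes; no member was lower in all 9, against 2.89%. Its log2 ratio ran from 0.05 in cluster 11 to 0.57 (0.35 to 0.79) in cluster 1, with intervals above 0 in 5 clusters. With cluster 3 included, weighting all clusters alike gave 0.32, and weighting them by their share of both libraries gave 0.35. Mcl1 was higher in 7 of 9, with intervals above 0 in 5, from -0.43 in cluster 11 to 0.32 in cluster 4. Bcl2a1a was higher in 7 of 9, most in cluster 1 at 161 and 234 CPM (0.54). Bcl2a1b was higher in 5 of 9, Bcl2 in 6 of 9, Bcl2l1 in 6 of 9 and Bcl2l11 in 5 of 9. Bcl2l1 had 1 interval below 0, in cluster 4, at 61.7 CPM (54.4 to 69.7) in fl/fl and 47.5 CPM (41.1 to 54.7) in cKO. Bcl2l11 had intervals below 0 in cluster 5, at -0.32 (-0.65 to -0.0002), which all but reached 0, and in cluster 11, at -0.76 (-1.56 to -0.07). It was also lower in clusters 2 and 8, with intervals that included 0. The interferon cluster 7 held 69 fl/fl and 333 cKO cells, and Bcl2a1d there stood at 120 CPM (98.7 to 145) and 129.97 CPM (120.1 to 140.5), with overlapping intervals.

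**Figure D4:**
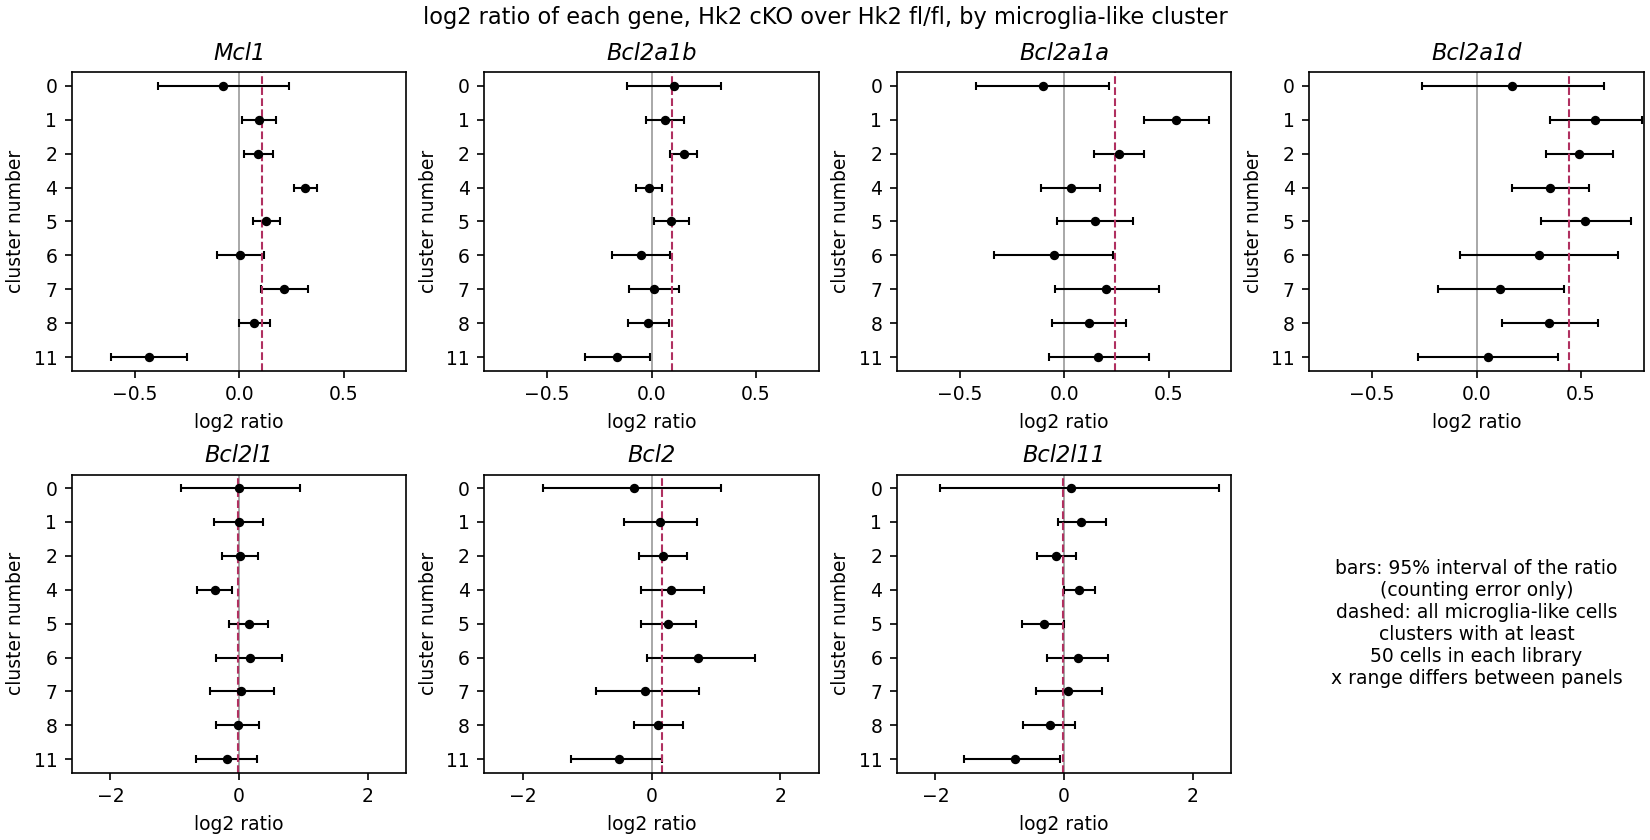
log2 ratio of cKO over fl/fl (horizontal axes, ranges differ between panels) for each gene in the 9 microglia-like clusters with at least 50 cells in each library, with 95% counting intervals; the dashed line is the ratio over all microglia-like cells. All 9 points of Bcl2a1d lie above 0, from 0.05 to 0.57, and Mcl1 lies below 0 in cluster 11 (-0.43) and above it in cluster 4 (0.32).

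Most microglia-like cells held both Mcl1 and A1 RNA. After thinning to 5000 UMIs, which left out 222 fl/fl and 181 cKO cells, Mcl1 was detected in 90.7% (89.4 to 91.9) of 2273 fl/fl cells and 87.4% of 1840 cKO cells, and in 94.8% and 91.7% unthinned. This share goes against the CPM, so no order is read from it. Bcl2a1b was detected in 88.1% and 87.4%, Bcl2a1a in 51.0% and 53.3%, and Bcl2a1d in 32.0% and 37.9% (93.2% and 92.9%, 71.1% and 73.8%, and 55.6% and 62.4% unthinned). Bcl2l1 was seen in 19.2% and 17.6%, Bcl2l11 in 17.1% and 17.4%, and Bcl2 in 8.97% and 9.51% (37.0% and 37.4%, 32.5% and 33.0%, and 18.5% and 21.5% unthinned). Mcl1 and at least 1 Bcl2a1 copy were seen together in 86.7% of the fl/fl and 83.3% of the cKO cells, and neither was seen in 25 and 23 cells. For free RNA in droplets, the neutrophil gene S100a8 was seen in 15.3% and 13.9% of unthinned microglia-like cells, so single UMIs of the low genes need not come from the cell.

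The share of cells with both members of a pair was set beside the product of their shares. The widest departure, of Bcl2 with Bcl2l1, rests on few cells: the pair stood at 1.07 times the product in fl/fl (42 cells) and 1.33 times in cKO (41 cells). Bcl2 with Bcl2l11 stood at 0.89 and 0.88 times (31 and 27 cells). Bcl2l1 with Bcl2a1d stood at 0.97 and 1.16 times, and Bcl2a1d with Bcl2l11 at 1.00 and 1.15 times. For Bcl2a1a with Bcl2a1d the observed share was 18.3% in fl/fl and 22.9% in cKO, 1.12 and 1.14 times the product. Mcl1 with Bcl2l11 stood at 1.06 and 1.10 times the product, and at 1.01 and 1.02 without clusters 0 and 11. Without those clusters Mcl1 was seen in 95.6% of fl/fl and 96.3% of cKO cells. This leaves a pair with Mcl1 little room above the product, so no change is read from the lower values.

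In neutrophil-like and monocyte-like cells A1 and Mcl1 parted, while in the unnamed cluster 13 both were high. The Scrublet caller marked 2 and 1 cells, so doublets largely remain, and these classes also hold microglial RNA. Levels are therefore given for cells without a UMI of P2ry12, Tmem119, Siglech or Fcrls. Neutrophil-like cells of this kind (34 fl/fl and 57 cKO) had Mcl1 at 918 and 1012 CPM, near the microglial level. Their Bcl2a1 copies summed to 109 CPM (21 UMIs) and 49.8 CPM (24 UMIs), against 876 and 982 CPM in microglia-like cells. Monocyte-like cells (34 and 17) had Mcl1 at 1145 and 1384 CPM and the Bcl2a1 sum at 35.9 CPM (8 UMIs) and 20.9 CPM (3 UMIs). These myeloid classes thus had Mcl1 RNA at or above the microglial level with few Bcl2a1 UMIs. Bcl2l11 in these monocyte-like cells stood at 121 CPM (79.9 to 176) in fl/fl and 62.6 CPM (28.6 to 119) in cKO.

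The osteoclast-type-like cells (4 and 8) and the unnamed cluster 16, led by H2-Eb1, H2-Aa and Cd209a (13 and 15), kept more of the Bcl2a1 sum, at 369 and 376 CPM and at 328 and 346 CPM. In endothelial-like cells (7 and 19) Bcl2a1 copies gave 1 and 6 UMIs and Bcl2l1 gave 1 and 14 UMIs, at median depths of 3191 and 4522 UMIs. Counting all monocyte-like cells, Bcl2a1b was at 181 CPM in fl/fl and 11.1 CPM (2 UMIs) in cKO, but the 4 microglial markers summed to 950 and 22.2 CPM in them. These are cells of unlike microglial content, and the part of that in the gap was not tested. Unnamed cluster 13, led by Ear2 and Ace (14 and 13 cells) and picked because of its values, had the highest Bcl2 level of the groups, at 117 CPM (53.5 to 222) and 191 CPM (98.5 to 333). Its Bcl2a1 copies summed to 728 CPM (56 UMIs) and 652 CPM (41 UMIs) and its Mcl1 stood at 975 and 1144 CPM, over all its cells; the 4 microglial markers summed to 1469 and 191 CPM in them, against 2697 and 2751 CPM in microglia-like cells.

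**Figure D5:**
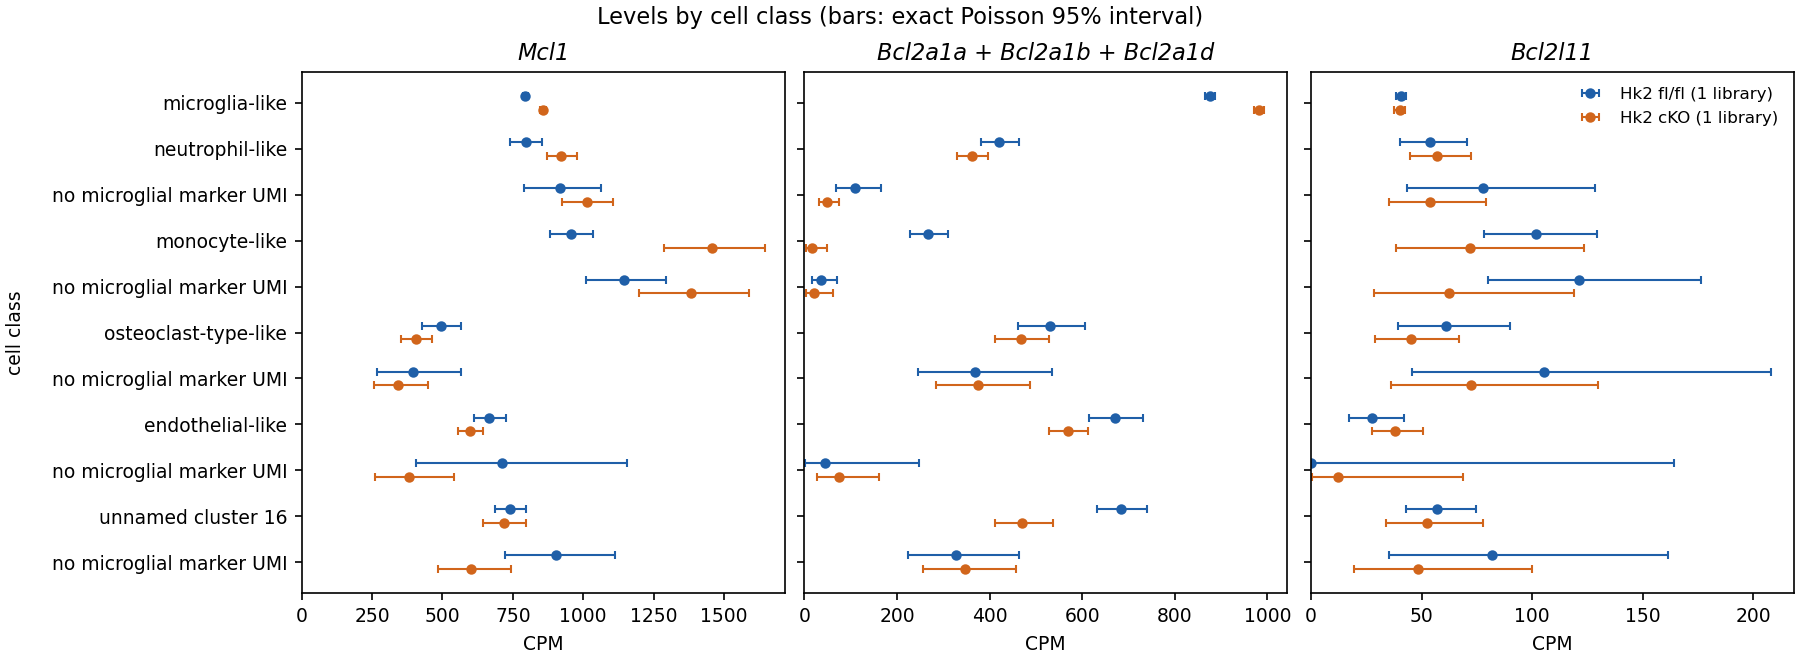
Levels of Mcl1, of the 3 Bcl2a1 copies summed and of Bcl2l11 (horizontal axes, CPM) by cell class in the fl/fl (blue) and cKO (orange) library, with exact Poisson 95% intervals; below each class are its cells without a UMI of 4 microglial markers. Neutrophil-like and monocyte-like cells without marker UMIs keep Mcl1 (918 to 1384 CPM) and show a low Bcl2a1 sum (20.9 to 109 CPM).

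Across 30 groups (class or microglia-like cluster by library, at least 20 cells), the genes most like each member among 7640 were named by Pearson's r of log2(CPM + 10), as a description with no p, since groups share libraries. Mcl1 was most like Kdm6b (0.96), Mir22hg (0.96) and Csrnp1 (0.96), and Bcl2l11 was most like Neat1 (0.92), Btg1 (0.92) and Tiparp (0.89). Bcl2a1a was most like Xlr (0.94), Bcl2a1b (0.93) and Commd9 (0.93), Bcl2a1b was most like Bcl2a1a (0.93), C3ar1 (0.93) and Basp1 (0.91), and Bcl2a1d was most like Basp1 (0.91), Lgmn (0.90) and F11r (0.90). Bcl2 was most like Bank1 (0.86), Cd180 (0.83) and Fads1 (0.83), and Bcl2l1 was most like Rasgrp3 (0.89), Cables1 (0.88) and St3gal6 (0.87). Among the members, the 3 Bcl2a1 copies had r from 0.82 to 0.93 with each other, and Mcl1 had 0.81 with Bcl2l11 but -0.01, 0.17 and 0.00 with Bcl2a1a, Bcl2a1b and Bcl2a1d. Bcl2 had r of 0.73, 0.74 and 0.75 with the same copies, and Bcl2l1 had 0.48, 0.61 and 0.72. Over the microglia-like clusters alone, Bcl2a1b had r of 0.79 with the immediate early sum, against 0.97 for Mcl1, and like Mcl1 was highest in cluster 4 among the 9 clusters. The other copies, Bcl2a1a and Bcl2a1d, had r of 0.17 and 0.33 with this sum. With the NF-kappaB and chemokine sum, r was 0.83 for Bcl2a1b, 0.49 for Bcl2a1a, 0.63 for Bcl2a1d and 0.87 for Mcl1.

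The rest of the apoptosis machinery was close to level. Of 78 genes in 9 lists, 62 were measured, 28 higher and 34 lower in cKO, with a median log2 ratio of -0.02, or 0.00 with TMM scaling. Bcl2a1d was the only one at least 25% apart. All 5 measured BH3-only genes were lower (median -0.09), as were 4774 of all 7815 measured genes, and Bcl2l11 was lower by so little that its ratio was 0.00 with TMM scaling. In this list Bbc3, which encodes PUMA, measured 96.1 CPM (92.8 to 99.5) in fl/fl and 76.8 CPM (73.6 to 80.0) in cKO (log2 ratio -0.32). Bad, the other of the 2 most abundant, measured 63.0 and 59.1 CPM with overlapping intervals. The effectors Bax (224 and 233 CPM) and Bak1 (64.1 and 66.0 CPM) also had overlapping intervals. Among 6 measured anti-apoptotic genes 5 were higher (median 0.13), all of them members already described. The medians of both lists are small beside 25% and have no replicate check.

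Downstream of mitochondria, 4 of 11 measured apoptosome, caspase and inhibitor genes were higher and 7 lower (median -0.03). Cycs, cytochrome c, measured 133 and 152 CPM with intervals apart, and Xiap, a caspase inhibitor gene, 67.4 and 69.6 CPM with overlapping intervals. Apaf1, which encodes the scaffold of the apoptosome, measured 30.9 and 25.5 CPM and was picked after its values were seen. In the death receptor list 3 of 4 measured genes were higher (median 0.05), with Cflar, an inhibitor of caspase-8, at 157 and 171 CPM and Casp8 at 123 and 129 CPM. The 4 atypical and mitophagy genes had a median of -0.04 (1 higher), led by Bnip3l at 88.8 and 84.8 CPM and Bnip3 at 13.4 and 15.6 CPM.

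Genes that act on the members gave no wide gap. Of 8 measured genes of MCL1 and BIM turnover 2 were higher (median -0.07), with Dynll1, a dynein light chain that binds BIM, at 282 and 290 CPM and the mitotic ubiquitin enzyme gene Ube2c at 164 and 146 CPM. Of 14 measured transcriptional regulators 6 were higher (median -0.02), with the NF-kappaB inhibitor gene Nfkbia at 1051 and 1091 CPM and Spi1, which encodes PU.1, at 482 and 489 CPM. Of 8 survival receptor genes 5 were higher (median 0.02), with Tyrobp at 3010 and 3033 CPM and Csf1r at 1595 and 1568 CPM. These 3 lists differed from the median of all measured genes by less than 0.1 on the log2 scale.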

How the data were processed

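The authors deposited raw UMI counts per gene and barcode for 1 library per genotype (10x 3' v3, per the labels' protocols); per the submitters' processing notes they come from Cell Ranger 3.1.0 with build GRCm38. All 55450 identifiers match GENCODE M21. Barcodes were kept from 500 detected genes up and to a mitochondrial share of 10% of UMIs, and Leiden clusters (scanpy 1.11.5, igraph 0.11.9; 2000 variable genes without the BCL2 family, 30 components, 15 neighbours, resolution 0.8, seed 1) were named by marker lists. Counts were summed per class or cluster and library and divided by the total to CPM. No count of these sums was tested, since each genotype has 1 library. Sums were also simulated as Poisson counts, with 50 genes at each of several folds in cKO. Of the exact Poisson intervals of the simulated fl/fl counts of 7815 genes, 95.1% held the true value. This checks the computation only, because the counts were drawn from the model that the intervals assume. Coverage of the cKO counts and of the ratio intervals was not checked.

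The named genes are all members, Hk2 and Cx3cr1, the 2 most abundant genes of each wider list and those at least 25% apart with separate intervals, the leading genes of each cluster and the 3 genes most like each member; exceptions are marked. Members, lists, markers and motifs were chosen with earlier results of these data known. Alternatives covered scaling (edgeR 4.0.16 in R 4.3.3), weighting, thinning, cell filters, doublets and clustering. Work was done in Python 3.11.15 (scipy 1.17.1, numpy 2.4.6, matplotlib 3.10.9, pandas 2.3.3). The values of 1 further gene picked from the wider lists are not reported here.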

Additional observations from a re-analysis of the deposited data

Results flagged for a closer look

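Mcl1 and Bcl2a1b had ratios of opposite sign in different microglia-like clusters of the same libraries. The log2 ratio of Mcl1 was -0.43 in cluster 11, where the fl/fl level was 250.1 CPM and the cKO level 185 CPM, and 0.32 in cluster 4, where it measured 1160.2 and 1445 CPM. The log2 ratio of Bcl2a1b was -0.16 in cluster 11, at 311 and 277 CPM, and 0.15 in cluster 2, at 719 and 799 CPM. In each case the counting interval of the ratio lay on one side of 0. The difference between clusters was not tested, because there is 1 library per genotype.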

How the results depend on the processing

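Each member's ratio was recomputed under 15 alternatives, 2 of them (cluster weighting by the shares of both libraries, and leaving out clusters 0 and 11) chosen after the data had been seen. Bcl2, Mcl1 and the 3 Bcl2a1 copies kept their direction in all 15, Bcl2l1 in 13 and Bcl2l11 in 9; Bcl2 ranged from 0.02 to 0.24. Against its main log2 ratio of 0.11, Mcl1 moved beyond counting error to 0.043 as a mean of CPM per cell, 0.071 thinned to 5000 UMIs, 0.14 in cells neither G2/M- nor S-positive, 0.14 with weighted clusters and 0.19 without clusters 0 and 11. Against 0.10, Bcl2a1b moved to 0.019, 0.023, 0.065, 0.044 and 0.15 under the same settings in that order, and to 0.059 with equal weight for each cluster. Bcl2a1a moved from 0.24 to 0.15 thinned and 0.18 weighted, and Bcl2a1d from 0.44 to 0.32 with equal and 0.35 with weighted clusters. The cause was not tested. At 50% apart in place of 25%, 0 members were higher. No paired analysis was possible because each genotype has 1 library, and no replicate could be left out. Animals, depth and library preparation cannot be told apart from genotype. Within genotype, loss of Hk2 cannot be told apart from the Cx3cr1CreER allele, which only the cKO mice carry, or from any difference in tamoxifen. Rare UMIs of Bcl2, Bcl2l1 and Bcl2l11 limit what single clusters show.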
